A study of Rattus norvegicus with 35 samples.

Results

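The miR-23/24/27 clusters are a pair of genomic clusters, each coding for 1 member of the miR-23, miR-27 and miR-24 families. Their members were taken by name from the count table: miR-23a-3p, miR-23b-3p, miR-24-3p, miR-24-1-5p, miR-24-2-5p, miR-27a-3p and miR-27b-3p, which are 7 of its 763 mature microRNAs (miRNAs). All 7 were counted in every library and all 7 were among the 328 miRNAs with enough reads to be tested. The data are small RNA sequencing counts from rat liver after ketoconazole, an azole antifungal drug with known liver toxicity, and the study's stated purpose was to find miRNA markers of the injury. Male Sprague-Dawley rats, 6 weeks old, were dosed by mouth for 3, 7 or 14 days, and liver was taken 24 h after the last dose. Control rats received the vehicle, 0.5% methylcellulose, and treated rats received ketoconazole at 10 (low), 30 (middle) or 100 mg/kg per day (high). Each of the 12 dose-by-day groups had 3 libraries except the day 14 control, which had 2, giving 35. Whether each library comes from its own rat is not stated in the labels, and all p-values here refer to library-to-library spread, part of which may be technical. The labels give no genotype or allele for the rats.

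A miRNA guides a silencing complex to messenger RNAs that pair with its seed, the bases near its 5′ end, so miRNAs with the same seed can act on overlapping targets. The miR-23a/27a/24-2 and miR-23b/27b/24-1 clusters are each transcribed as a common primary transcript that is cut into hairpins, and each hairpin can release an RNA from its 5′ arm (5p) and from its 3′ arm (3p). In liver, miR-27b is known as a regulator of lipid metabolism genes, and in human cells it acts on the vitamin D receptor and on a cytochrome P450 of drug metabolism; miR-23b cluster miRNAs act on Smad proteins of TGF-beta signalling in mouse liver progenitor cells; and miR-24 acts on a hepatocyte nuclear factor in human cells.

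The mature sequences are given first because the families differ at very few bases, which bears on how reads could be told apart. They are those of RefSeq on the GRCr8 assembly, and all 7 members matched by name. Capitals mark the seed, bases 2 to 8 counted from the 5′ end.
miR-23a-3p: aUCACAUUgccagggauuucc
miR-23b-3p: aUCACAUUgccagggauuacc
miR-27a-3p: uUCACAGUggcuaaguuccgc
miR-27b-3p: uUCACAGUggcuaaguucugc
miR-24-2-5p: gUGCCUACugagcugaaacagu
miR-24-1-5p: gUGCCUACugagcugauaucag
miR-24-3p: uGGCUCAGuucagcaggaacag

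The miR-23 pair differed by 1 base, U19A from miR-23a-3p to miR-23b-3p with positions counted from the 5′ end, and the miR-27 pair also by 1, C19U from miR-27a-3p to miR-27b-3p. The miR-24 5p arms were identical over their first 16 bases and differed at 5 of the 22 positions. The 3p arm of both miR-24 hairpins was the same 22-base RNA, so a miR-24-3p read cannot be assigned to either cluster. How reads that fit several miRNAs were assigned is not given in the sources used here, and the split within the miR-23 and miR-27 pairs is therefore uncertain.

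The miR-24 hairpins, on the minus strand in GRCr8, are shown with both mature arms in capitals, since their 5p arms mark the clusters apart while their 3p arm does not.
Mir24-1, chr17:1818669-1818736: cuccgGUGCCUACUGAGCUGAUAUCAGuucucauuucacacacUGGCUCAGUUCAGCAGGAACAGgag
Mir24-2, chr19:40859455-40859562: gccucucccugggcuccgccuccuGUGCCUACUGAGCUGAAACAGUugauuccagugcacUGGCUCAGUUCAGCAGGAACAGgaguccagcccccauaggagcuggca

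In that assembly the miR-23a/27a/24-2 cluster spans 389 bases of chromosome 19, from 40859455 to 40859843, and no RefSeq gene of the table used here contains it. The miR-23b/27b/24-1 cluster spans 814 bases of chromosome 17, from 1818669 to 1819482, and lies within the protein-coding gene Aopep, which codes for an aminopeptidase. Both clusters hold 3 hairpins on the minus strand. The counts themselves were made on rn6, per the submitters' processing notes, and no rn6 coordinates are used.

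The libraries held 2665943 to 9665416 counts. On the first principal component of all 328 tested miRNAs, which carried 46.2% of the variance, they fell into separate sets that did not follow dose alone. All controls and the low dose of days 3 and 14 (14 libraries) lay between -14.49 and -4.323, and all middle and high dose libraries together with the low dose of day 7 (21 libraries) between 4.236 and 6.47. Control day 7 replicates 2 and 3 lay farthest out. Averages over days are therefore also given from days 3 and 14 alone. Liver identity was checked on 6 hepatocyte miRNAs, miR-122-5p and miR-192-5p among them, which summed to 239700 to 287500 CPM (CPM being counts scaled to a common library size, with TMM factors) at the high dose and 226900 to 309900 CPM in controls. In whole liver, fewer cells of a type and less RNA per cell cannot be told apart.

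The members, all of 21 or 22 bases, differed widely in level. miR-27b-3p was the most abundant, with a mean of 32490 CPM over all libraries, 10th of the tested miRNAs and 3.27% of all counts. miR-23b-3p followed at 1321 CPM and miR-27a-3p at 931 CPM, then miR-24-3p at 470 CPM and miR-23a-3p at 323 CPM. In each pair of near-identical 3p RNAs the member of the miR-23b/27b/24-1 cluster had the higher level. For the 5p arms of miR-24 the order was the other way round, with 131 CPM for miR-24-2-5p and 4.66 CPM for miR-24-1-5p. miR-24-1-5p rested on 4 to 42 reads per library, which limits its precision, and miR-24-2-5p on 200 to 1005.

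**Figure D1:**
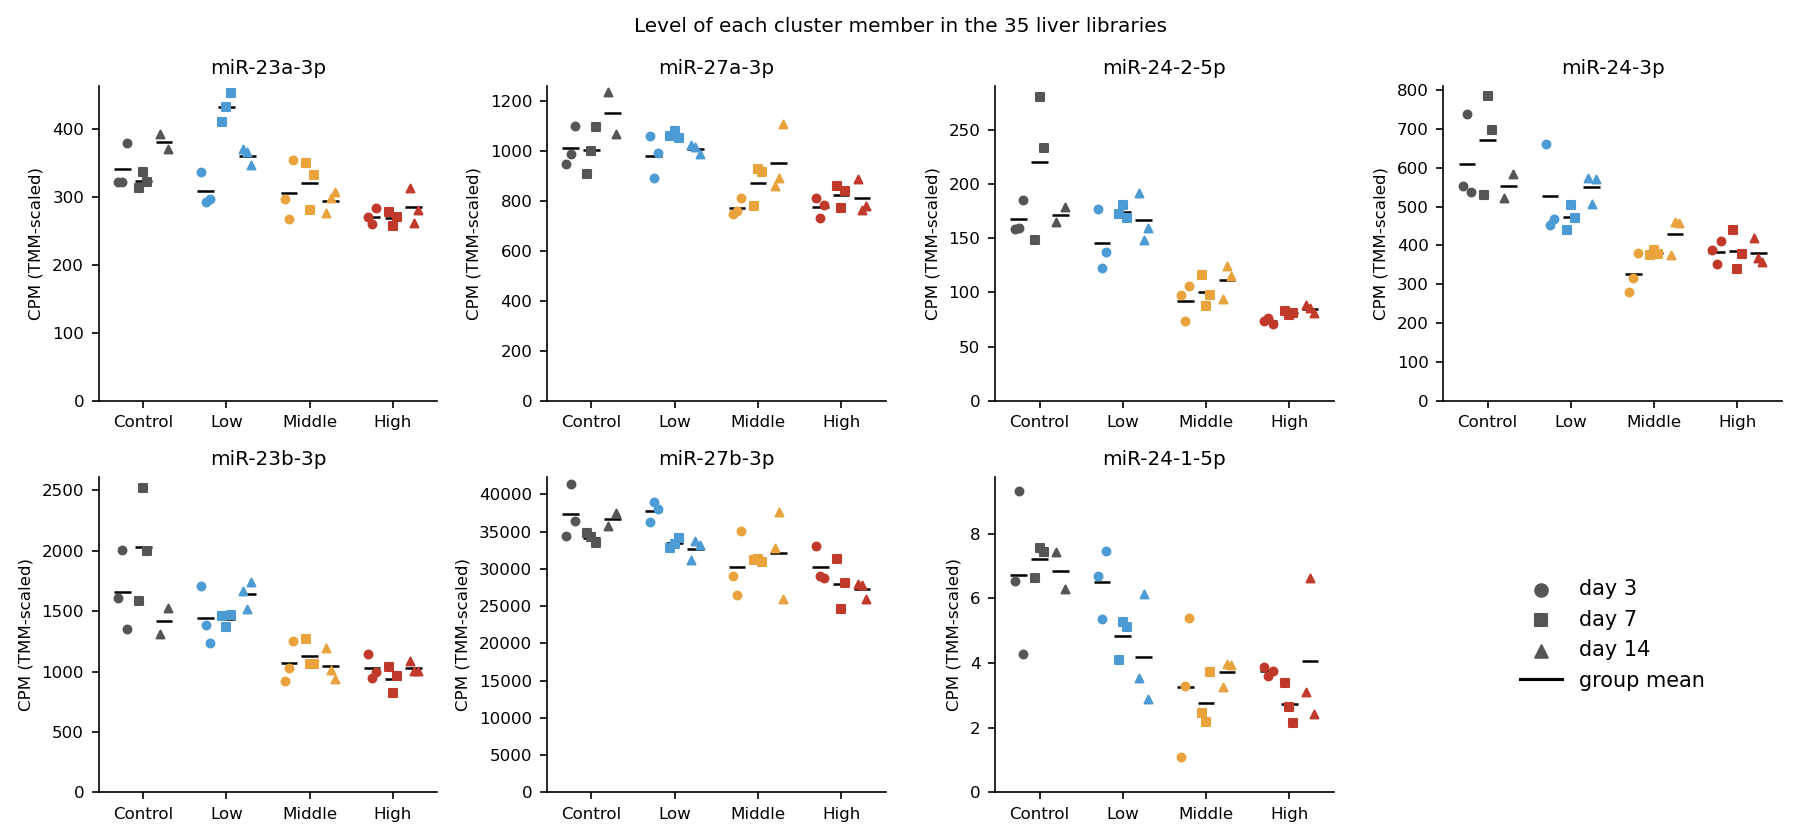
Level of each member in CPM (TMM-scaled, linear axis from 0) in the 35 libraries, by dose from control to high, with a marker shape for each day and a bar at each group mean. The 9 high dose libraries lie below all 8 controls for every member but miR-24-1-5p.

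In livers given the high dose, all 7 members were lower than in controls. The largest decreases were in the 5p arms of miR-24 and in miR-23b-3p and miR-24-3p, and the smallest in miR-27a-3p, miR-27b-3p and miR-23a-3p. The comparison is the mean over days of each day's difference from its own control, fitted in edgeR over all 328 miRNAs with an adjusted p under 0.05 as the threshold. Among all tested miRNAs 62.8% passed in either direction and 31.4% were lower. The members' median log2 fold change was -0.67, against -0.036 for all 328.

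The arms of the miR-24 hairpins are given first. miR-24-2-5p, the 5p arm of the miR-24-2 hairpin, had 71.2 CPM in the lowest high dose library, 80.9 CPM in the median one and 88.0 CPM in the highest, against 148, 172 and 280 CPM for the lowest, median and highest control. The high dose values were tightly grouped and far from every control; the widest spread was among the controls, where day 7 replicates 2 and 3 had 280 and 233 CPM. Its log2 fold change was -1.21 ± 0.11 (SE), a level 0.431 times that of controls, with an edgeR adjusted p of 1.94e-11 and n = 9 against 8. Only 1.52% of the tested miRNAs had a lower log2 fold change. That share was 3.96% for miR-24-1-5p, 10.4% for miR-23b-3p and 12.5% for miR-24-3p. It was 28.7% for miR-27a-3p, 32.9% for miR-27b-3p and 33.2% for miR-23a-3p. miR-24-1-5p, the 5p arm of the other hairpin, had 2.13, 3.39 and 6.63 CPM in the lowest, median and highest high dose library, against 4.29, 7.03 and 9.33 CPM in controls. Here the groups overlapped, through high dose day 14 replicate 2. Its 6.63 CPM exceeded several controls, among them day 3 replicate 3 (4.29 CPM) and the lower day 14 control (6.28 CPM). The log2 fold change of miR-24-1-5p was -0.995 ± 0.22 (SE; edgeR adjusted p = 0.000232). miR-24-3p, the 3p arm shared by both hairpins, had 338, 379 and 441 CPM at the high dose and 523, 569 and 785 CPM in controls, with no overlap. It fell by 0.67 ± 0.09 on the log2 scale (edgeR adjusted p = 3.09e-07).

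Of the miR-23 family, miR-23b-3p had 824, 1002 and 1146 CPM in the lowest, median and highest high dose library, against 1312, 1596 and 2522 CPM in controls. The groups did not overlap, and the highest controls were day 7 replicate 2 and day 3 replicate 2. Its log2 fold change was -0.75 ± 0.09 (SE; edgeR adjusted p = 3.42e-08). miR-23a-3p had 258, 271 and 313 CPM at the high dose and 314, 330 and 394 CPM in controls. Its highest high dose library and lowest control nearly met, at 313.3 and 313.6 CPM, and the log2 fold change was -0.34 ± 0.07 (edgeR adjusted p = 8.93e-05).

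Of the miR-27 family, miR-27a-3p had 733, 784 and 890 CPM in the lowest, median and highest high dose library, against 910, 1037 and 1237 CPM in controls. miR-27b-3p had 24620, 28160 and 33080 CPM at the high dose and 33420, 35310 and 41430 CPM in controls. Neither overlapped, though the gap was narrow in both. Their log2 fold changes were close, -0.39 ± 0.07 (edgeR adjusted p = 9.30e-06) for miR-27a-3p and -0.34 ± 0.07 (adjusted p = 4.11e-05) for miR-27b-3p.

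Thus 6 of the 7 members had every high dose library below every control, where 10.4% of all tested miRNAs did. With days 3 and 14 alone, the 7 calls held, from -1.10 for miR-24-2-5p and -0.57 for miR-23b-3p to -0.37 for miR-23a-3p and miR-27b-3p. The 7 calls also held without any 1 of the 17 libraries. Scaling by library size alone moved the median of all 328 miRNAs to -0.112, and all 7 members remained lower under each scaling tried. Markers of cell types also changed. The endothelial list held only the arms of the miR-126a hairpin, miR-126a-3p and miR-126a-5p, and 2 of 2 were lower, by 0.76 and 0.52 on the log2 scale. Their sum was 18910 to 22700 CPM at the high dose, against 28700 to 37850 CPM in controls. Of the other marker lists, 2 of 6 hepatocyte miRNAs were higher and 4 lower, 2 of 5 stellate and smooth muscle miRNAs were higher and 1 lower, 1 of 5 white blood cell miRNAs was higher and 2 lower, 1 of 3 red blood cell miRNAs was higher and 1 lower, and 1 of 5 bile duct miRNAs was higher and 2 lower. Some decreases on these other lists were of similar or larger size, such as miR-122-3p (-0.67), miR-194-5p (-0.57), miR-214-3p (-0.92) and miR-141-3p (-1.17). Increases included miR-148a-3p (0.72) and miR-145-5p (2.03). The part of these cell types in the members' decrease was not tested.

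**Figure D2:**
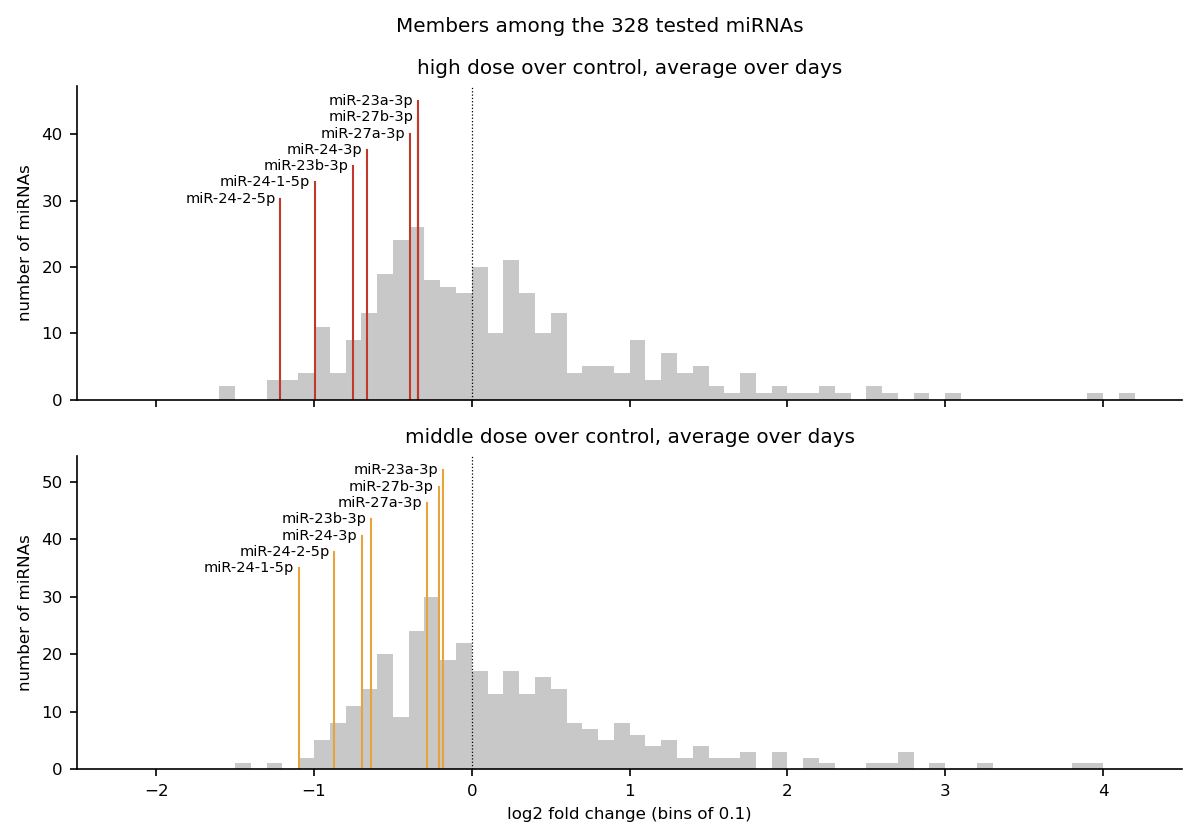
Histogram of the log2 fold changes of the 328 tested miRNAs (bins of 0.1) at the high dose (top) and the middle dose (bottom), each over control and averaged over days; coloured lines mark the 7 members. All members lie left of 0, with miR-24-2-5p at -1.21 and miR-23a-3p at -0.34 at the high dose.

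By day, 6 of 7 members were lower at the high dose on day 3, where 16.2% of all tested miRNAs were, 6 of 7 on day 7 (27.7% of all) and 6 of 7 on day 14 (13.4% of all). The median log2 fold change of all 328 was -0.00061, -0.129 and 0.032 on days 3, 7 and 14, and that of the members -0.67, -0.80 and -0.51. On day 7, 42.4% and 42.1% of all tested miRNAs had lower log2 fold changes than miR-27a-3p and miR-27b-3p. miR-24-2-5p averaged 73.9 ± 2.65, 80.8 ± 2.04 and 84.9 ± 3.65 CPM (SD, n = 3 each) in the high dose groups of days 3, 7 and 14, against 168 ± 15.3 CPM (n = 3), 220 ± 66.7 CPM (n = 3) and 172 ± 10.1 CPM (n = 2) in their controls. The low level of miR-24-2-5p was present on day 3, and each day's high dose libraries lay below that day's controls. Of all tested miRNAs 22.9%, 29.9% and 27.7% did so on days 3, 7 and 14. The log2 fold changes of miR-24-2-5p were -1.18 ± 0.18, -1.44 ± 0.18 and -1.02 ± 0.20, and these calls held in each alternative tried. miR-23b-3p averaged 1031 ± 103, 941 ± 108 and 1031 ± 47.6 CPM at the high dose, against 1658 ± 328, 2033 ± 471 and 1417 ± 149 CPM in the controls of the same days. Its high dose level varied less between days than its control level, and its log2 fold changes were -0.69 ± 0.16, -1.11 ± 0.16 and -0.46 ± 0.17.

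The missing calls were miR-24-1-5p on day 3 (-0.84 ± 0.36, edgeR adjusted p = 0.0637) and day 14 (-0.78 ± 0.41, adjusted p = 0.148), and miR-23a-3p on day 7 (-0.27 ± 0.12, adjusted p = 0.0522). Several daily calls rested on single libraries or on the settings, and across the filters, scalings and tools tried 4 to 6 members were lower on day 3, 4 to 7 on day 7 (5 in DESeq2) and 5 or 6 on day 14; the stricter filter, a CPM of at least 10 in 3 libraries, leaves miR-24-1-5p untested. With no filter on low counts, miR-23a-3p (-0.30) and miR-27b-3p (-0.27) did not pass on day 3. On day 3, miR-23a-3p no longer passed without control replicate 3 (-0.28), high replicate 1 (-0.32) or high replicate 2 (-0.30), and miR-27b-3p without control replicate 2 (-0.23), high replicate 2 (-0.28) or high replicate 3 (-0.27). On day 7, miR-27a-3p (-0.28 ± 0.11) and miR-27b-3p (-0.29 ± 0.11) no longer passed without any 1 of the 3 controls or without high replicate 2 or 3, at -0.17 to -0.25 and -0.17 to -0.26. Both calls were also lost with DESeq2's size factors (-0.21 and -0.22), with no filter (-0.063 and -0.069) and from the libraries of day 7 alone (-0.18 for both), and that of miR-27b-3p in DESeq2 (-0.22) and with the stricter filter (-0.25). By library size alone miR-23a-3p passed on day 7 (-0.29). On day 14, miR-23b-3p no longer passed without control replicate 2 (-0.42) or high replicate 3 (-0.43), nor miR-24-3p without high replicate 3 (-0.48). miR-24-1-5p passed on day 3 without control replicate 3 (-1.12) and on day 14 without high replicate 2 (-1.35).

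The high dose decrease was not shown to differ between days for any member. In edgeR, 0 of 7 members passed for day 7 minus day 3 and 0 of 7 for day 14 minus day 3, with 0 at an unadjusted p under 0.05 in both and 0 in DESeq2. Of all 328 miRNAs 0% passed in either, with 36 and 24 at an unadjusted p under 0.05. The intervals were wide: for miR-23b-3p the day 7 effect minus the day 3 effect was -0.43, with a 95% interval from -0.89 to 0.04. In vehicle livers, 0 of 7 members changed from day 3 to day 7 or to day 14 in edgeR, where 1.52% and 0% of all miRNAs passed, and 0 did in DESeq2. The 1 member with an unadjusted p under 0.05 was miR-24-2-5p, higher on day 7 by 0.39 ± 0.18 (edgeR adjusted p = 0.194), and without control day 7 replicate 1 it passed, at 0.51.

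**Figure D3:**
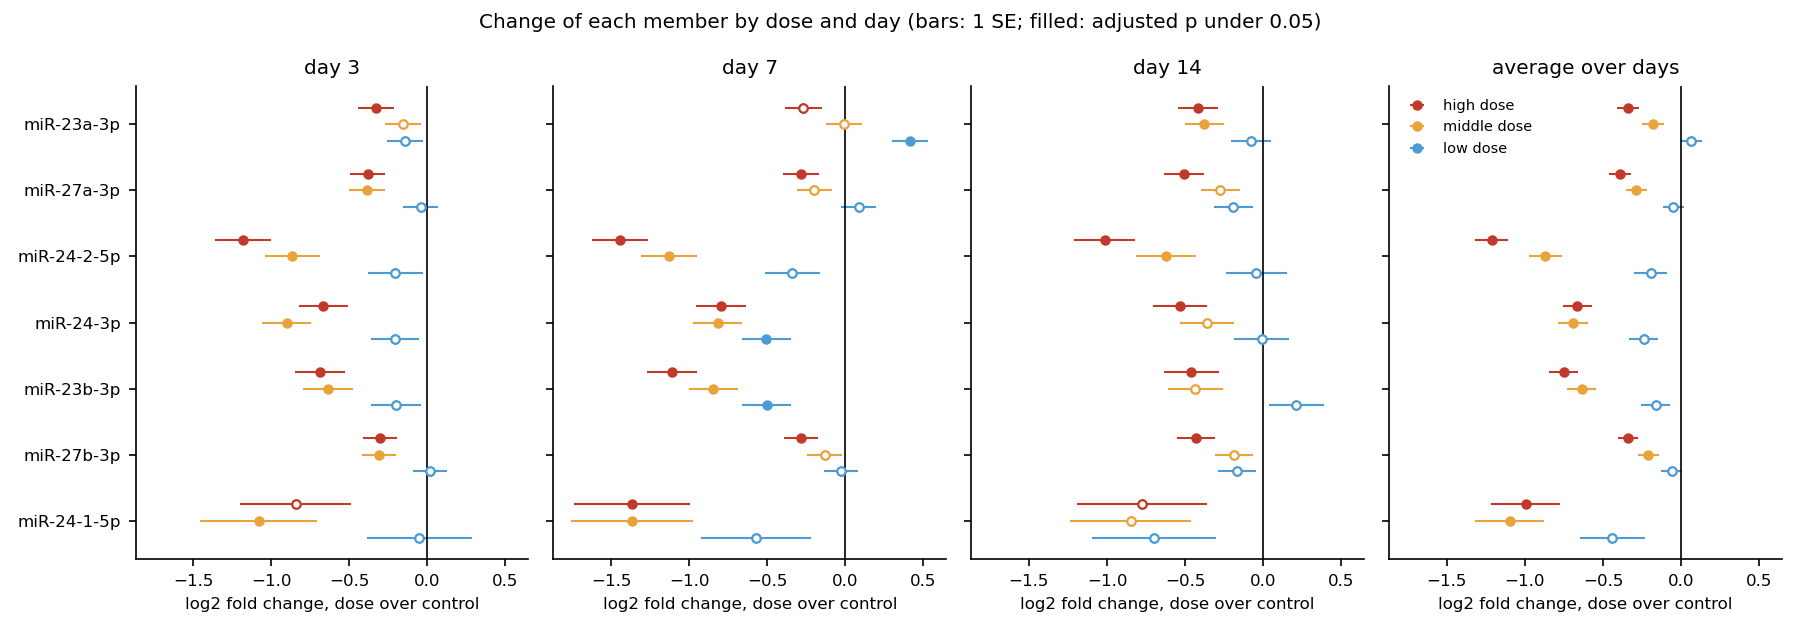
Log2 fold change of each member over control at the high, middle and low dose on days 3, 7 and 14 and averaged over days; bars are 1 SE and filled points have an edgeR adjusted p under 0.05. All high dose and middle dose points lie at or below 0, and at the low dose of day 7 miR-23a-3p lies above 0 while miR-23b-3p and miR-24-3p lie below.

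At the middle dose, all 7 members were again lower than in controls on average, where 29.9% of all tested miRNAs were, and the members' median log2 fold change was -0.64, against -0.022 for all. miR-24-1-5p had 1.08, 3.28 and 5.41 CPM in the lowest, median and highest middle dose library, against 4.29, 7.03 and 9.33 CPM in controls, and overlapped with them. It fell by 1.10 ± 0.22 on the log2 scale (edgeR adjusted p = 8.24e-05). miR-24-2-5p had 73.6, 97.7 and 125 CPM, against 148, 172 and 280 CPM in controls, and miR-24-3p had 281, 377 and 461 CPM, against 523, 569 and 785 CPM. With miR-23b-3p, at 924, 1062 and 1270 CPM against 1312, 1596 and 2522 CPM, these were the 3 members whose middle dose libraries all lay below all controls; 7.01% of tested miRNAs did so. Their log2 fold changes were -0.87 ± 0.11, -0.69 ± 0.09 and -0.64 ± 0.09, with edgeR adjusted p of 2.35e-08, 1.85e-07 and 8.80e-07.

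The other 3 members overlapped with controls at the middle dose and changed less. miR-27a-3p had a log2 fold change of -0.29 ± 0.07 (edgeR adjusted p = 0.000544), miR-27b-3p of -0.21 ± 0.07 (adjusted p = 0.00635) and miR-23a-3p of -0.18 ± 0.07 (adjusted p = 0.0233). The miR-23a-3p call was lost with no filter on low counts, without control day 3 replicate 3 and without middle day 3 replicate 2 (-0.16 in each), and the miR-27b-3p call with no filter (-0.19). From days 3 and 14 alone the 7 calls held, from -0.96 for miR-24-1-5p to -0.25 for miR-27b-3p. The endothelial markers were lower here too, by 0.70 and 0.38, with a sum of 20370 to 25150 CPM against 28700 to 37850 CPM in controls. Lower were also 4 of 6 hepatocyte, 1 of 5 stellate and smooth muscle and 1 of 5 white blood cell markers, and 2, 3 and 2 were higher. Of the red blood cell and bile duct markers 1 of 3 and 2 of 5 were lower, and 1 and 0 higher. The part of these markers in the result was not tested.

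By day, 6 of 7 members were lower at the middle dose on day 3 (18.0% of all miRNAs), 4 of 7 on day 7 (23.8% of all) and 2 of 7 on day 14 (10.1% of all). The day 7 calls were miR-24-2-5p (-1.13 ± 0.18), miR-24-1-5p (-1.36 ± 0.39), miR-23b-3p (-0.85 ± 0.16) and miR-24-3p (-0.82 ± 0.16), and miR-23a-3p was at -0.01 ± 0.12. On day 14 the calls were miR-24-2-5p (-0.62 ± 0.19) and miR-23a-3p (-0.38 ± 0.13). The day 3 calls of miR-24-1-5p and miR-27b-3p were lost without control replicate 2 (-0.81 and -0.26) or middle replicate 1 (-0.67 and -0.31), and that of miR-27b-3p also without middle replicate 2 (-0.25). On day 14, 3 further members passed when 1 library was left out: miR-23b-3p without control replicate 1 (-0.65) or middle replicate 1 (-0.61), miR-27a-3p without control replicate 2 (-0.45) or middle replicate 3 (-0.40), and miR-27b-3p without middle replicate 2 (-0.38). That day's count depended on the scaling, with 5 members lower under DESeq2's size factors or in DESeq2 and 7 by library size alone. With no filter, miR-23a-3p (-0.41) did not pass on day 14, nor miR-27b-3p (-0.29) on day 3, and miR-27a-3p passed on day 7 by library size alone (-0.29) and in DESeq2 (-0.20).

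Between the high and the middle dose, the 1 member that differed in edgeR was miR-24-2-5p, lower at the high dose by 0.34 ± 0.10 on the log2 scale (edgeR adjusted p = 0.0192), where 9.45% of all miRNAs were lower. The high and middle dose libraries overlapped, at 71.2 to 88.0 and 73.6 to 125 CPM. The call was lost with library size as the only scaling (-0.27), with no filter (-0.29), from days 3 and 14 alone (-0.36), and without middle day 7 replicate 1 (-0.28) or middle day 14 replicate 2 (-0.29). The 95% interval of the difference ran from -0.16 to 0.21 for miR-24-3p, from -0.30 to 0.07 for miR-23b-3p and from -0.24 to 0.03 for miR-27a-3p. Another member, miR-23a-3p, was also lower at the high dose in DESeq2 (-0.14, adjusted p = 0.0473), with the stricter filter (-0.19) and without middle day 3 replicate 2 (-0.20). miR-27b-3p passed without middle day 14 replicate 3 (-0.17). Mean levels were lower at each step from control to low, middle and high dose for 4 members, miR-27a-3p, miR-24-2-5p, miR-23b-3p and miR-27b-3p, though neighbouring doses overlapped.

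At the low dose, none of the 7 members passed on day 3, on day 14 or on average in the reported edgeR fit. On days 3 and 14, 0 members had an unadjusted p under 0.05 and 0 passed in DESeq2; of all miRNAs 0% were lower or higher on either day. On average 6.10% of all miRNAs were lower and 16.5% higher, 2 members (miR-24-3p and miR-24-1-5p) had an unadjusted p under 0.05, and 1 passed in DESeq2. That member, miR-24-3p, had 441, 505 and 661 CPM in the lowest, median and highest low dose library, against 523, 569 and 785 CPM in controls, with overlap. Its log2 fold change was -0.24 ± 0.09 (edgeR adjusted p = 0.0608). In edgeR it did pass with DESeq2's size factors (-0.27, adjusted p = 0.022) and by library size alone (-0.25, adjusted p = 0.043). It also passed there with no filter (-0.28, adjusted p = 0.049) and with the stricter filter (-0.26, adjusted p = 0.034). It passed without control day 3 replicate 2 or 3, any 1 of the 3 day 7 controls, control day 14 replicate 1, low day 3 replicate 1 or any 1 of the 3 low day 14 libraries, at -0.25 to -0.37. Others that passed without 1 library were miR-23b-3p, with either control day 7 replicate 1 (-0.27) or that of day 14 (-0.30) left out; miR-24-2-5p, without those controls (-0.32 in both) or low day 14 replicate 1 (-0.29); and miR-24-1-5p, without low day 14 replicate 2 (-0.63). From days 3 and 14 alone miR-24-3p was at -0.11 and 0 members passed.

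On day 7 of the low dose, miR-23a-3p was higher than in controls, and miR-23b-3p and miR-24-3p were lower. Among all miRNAs 26.5% were higher and 18.6% lower on that day. miR-23a-3p had 411, 432 and 454 CPM in the 3 low dose libraries, against 314, 337 and 322 CPM in the 3 controls. All low dose values were above all controls of that day, as for 29.9% of all tested miRNAs. The log2 fold change was 0.42 ± 0.12 (edgeR adjusted p = 0.0033), with the call lost without control day 7 replicate 3 (0.31). miR-23b-3p had 1462, 1372 and 1472 CPM at the low dose, against 1581, 2522 and 1997 CPM in controls. The low dose libraries were close to each other and below all controls of that day, as for 20.4% of all tested miRNAs. The log2 fold change was -0.50 ± 0.16 (edgeR adjusted p = 0.00935). miR-24-3p had 441, 505 and 471 CPM, against 530, 785 and 697 CPM in controls, and fell by 0.51 ± 0.16 (edgeR adjusted p = 0.00848). The near-identical miR-23 RNAs therefore went in opposite directions on this day, and their summed count had a log2 fold change of -0.33 ± 0.14 (edgeR adjusted p = 0.057). The sum did pass with DESeq2's size factors (-0.42, edgeR adjusted p = 0.0107) and by library size alone (-0.38, adjusted p = 0.0252). miR-24-2-5p passed without control day 7 replicate 1 (-0.61), with DESeq2's size factors (-0.42) and in DESeq2 (-0.42), and had -0.34 ± 0.18 with all libraries. The endothelial markers had log2 fold changes of -0.90 and -0.29 on this day, and 3 of 5 white blood cell markers were higher, among them miR-150-5p at 0.64 and miR-142-5p at 1.73. Of the bile duct markers 2 of 5 were lower, miR-200a-3p at -1.02 and miR-200b-3p at -0.96, and of the hepatocyte markers 2 of 6 were higher and 3 lower. Of the stellate and smooth muscle markers 2 of 5 were higher, with miR-145-5p at 3.55, and 1 lower, while 0 of 3 red blood cell markers passed in edgeR. Their part in the result was not tested.

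The low dose effect on day 7 was also tested against the mean of its effects on days 3 and 14, a contrast in which 23.2% of all miRNAs were higher and 14.3% lower. miR-23a-3p was 0.53 ± 0.14 higher by this measure (edgeR adjusted p = 0.00386) and kept its call without any 1 library. miR-23b-3p was 0.51 ± 0.20 lower (log2 difference -0.51, edgeR adjusted p = 0.0405). That call was lost without any 1 of 7 libraries, namely control day 3 replicates 1 and 3, control day 7 replicate 2, low day 3 replicate 1 and the 3 low day 7 replicates, at -0.43 to -0.53, and with no filter (-0.47). miR-24-3p, at -0.40 ± 0.20, passed without control day 3 replicate 2 (-0.52), control day 7 replicate 1 (-0.54), low day 3 replicate 2 (-0.50), low day 14 replicate 2 (-0.56) or low day 14 replicate 3 (-0.53), and also with DESeq2's size factors (-0.49), in DESeq2 (-0.48) and with the stricter filter (-0.46).

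Because the low dose of day 7 lay with the middle and high dose on the first principal component, these groups were also compared with each other on day 7, a comparison added after the data were examined. At the high dose 4 of 7 members were lower than at the low dose, where 17.1% of all miRNAs were. The median log2 fold change was -0.61 for the members and -0.196 for all 328 miRNAs. With DESeq2's size factors the median of all was -0.041. Of all tested miRNAs 36.6% had a lower log2 fold change than miR-27a-3p, a member that passed. miR-24-2-5p had 82.8, 78.7 and 81.0 CPM in the 3 high dose libraries, against 172, 181 and 169 CPM in the 3 low dose libraries. The groups were far apart, with a log2 fold change of -1.10 ± 0.18 (edgeR adjusted p = 4.10e-05). miR-23a-3p had 279, 258 and 271 CPM, against 411, 432 and 454 CPM, and a log2 fold change of -0.68 ± 0.12 (adjusted p = 7.36e-05). miR-23b-3p followed at -0.61 ± 0.16 (adjusted p = 0.0051; lost without high replicate 3, -0.45, and with no filter, -0.37). miR-27a-3p was at -0.37 ± 0.11 (adjusted p = 0.0174), and its call was lost without low replicate 2 (-0.36), high replicate 2 (-0.32) or high replicate 3 (-0.21), with DESeq2's size factors (-0.21), with no filter (-0.13) and from the libraries of day 7 alone (-0.27). miR-27b-3p, at -0.26 ± 0.11, passed without high replicate 1 (-0.34). The count of members that passed was 2 without high replicate 3.

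At the middle dose 2 of 7 members were lower than at the low dose on day 7, where 7.93% of all miRNAs were. These were miR-24-2-5p, with 116, 87.7 and 97.7 CPM at the middle dose against 172, 181 and 169 CPM at the low dose, and miR-23a-3p. Their log2 fold changes were -0.79 ± 0.18 (edgeR adjusted p = 0.00457) and -0.43 ± 0.12 (adjusted p = 0.0126). Both calls rested on single libraries: miR-24-2-5p no longer passed without middle replicate 2 (-0.59) or 3 (-0.63), nor miR-23a-3p without low replicate 3 (-0.39), middle replicate 2 (-0.23) or middle replicate 3 (-0.32), with no filter (-0.32) or from the libraries of day 7 alone (-0.42).

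Ratios of 2 members within a library need no scaling between libraries, so the balance between the clusters was compared on log2 ratios of counts. Doses and controls were set against each other within days by an exact permutation test, two-sided, whose smallest p is 0.00025, and p-values were adjusted over 12 such tests. The ratio of miR-27a-3p to miR-27b-3p had a log2 median of -5.18 at the high dose and -5.11 in controls. Its difference, the mean over days, was -0.05 at the high dose, -0.07 at the middle dose and 0.01 at the low dose (exact permutation adjusted p = 0.606, 0.666 and 0.857). The ratio of miR-23a-3p to miR-23b-3p had a lowest, median and highest log2 value of -2.08, -1.83 and -1.67 at the high dose, against -2.90, -2.33 and -1.74 in controls, with overlap. It was higher than in controls by 0.40 at the high dose and 0.44 at the middle dose (exact permutation adjusted p = 0.044 for both), and by 0.22 at the low dose (adjusted p = 0.529).

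The miR-23 ratio depended on many single libraries. The high dose call was lost without any 1 of 12 of the 17 libraries and the middle dose call without any 1 of 13, at 0.34 to 0.42 and 0.38 to 0.47, and from days 3 and 14 alone the differences were 0.19 and 0.26 (exact permutation adjusted p = 0.66 for both). The libraries whose loss kept the high dose call were control day 3 replicate 3, control day 7 replicate 1, control day 14 replicate 1, high day 3 replicate 1 and high day 14 replicate 2. Those whose loss kept the middle dose call were the same 3 controls and middle day 14 replicate 1.

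The count of miR-24-3p relative to the 5p arms of its hairpins was higher at the high dose. The 5p sum was mostly miR-24-2-5p, at a mean of 131 CPM against 4.66 CPM for miR-24-1-5p, while miR-24-3p pools both hairpins. Whether the balance of arms changed within either hairpin was not tested. The ratio of miR-24-3p to the sum of miR-24-1-5p and miR-24-2-5p had a lowest, median and highest log2 value of 1.99, 2.19 and 2.46 at the high dose, against 1.45, 1.63 and 2.13 in controls. Of the 9 high dose libraries 6 lay above every control, and all 9 lay above every control but day 3 replicate 2. The difference was 0.53, a ratio 1.44 times that of controls (exact permutation p = 0.00025, the smallest this test can give; adjusted p = 0.003), and the call held without any 1 library. From days 3 and 14 alone the difference was 0.49 (adjusted p = 0.06 by the same exact permutation test). The smallest p that test can give from these days is 0.005, which times 12 tests is 0.06. A ratio that reached it alone could not pass, so this value does not show whether the call held. At the middle dose the difference was 0.19 and at the low dose -0.04 (exact permutation adjusted p = 0.251 and 0.666). The ratio of miR-24-2-5p to miR-24-1-5p, whose 5p arms mark the clusters apart, differed by -0.20, 0.27 and 0.25 at the high, middle and low dose, with exact permutation adjusted p of 0.606, 0.578 and 0.578.

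**Figure D4:**
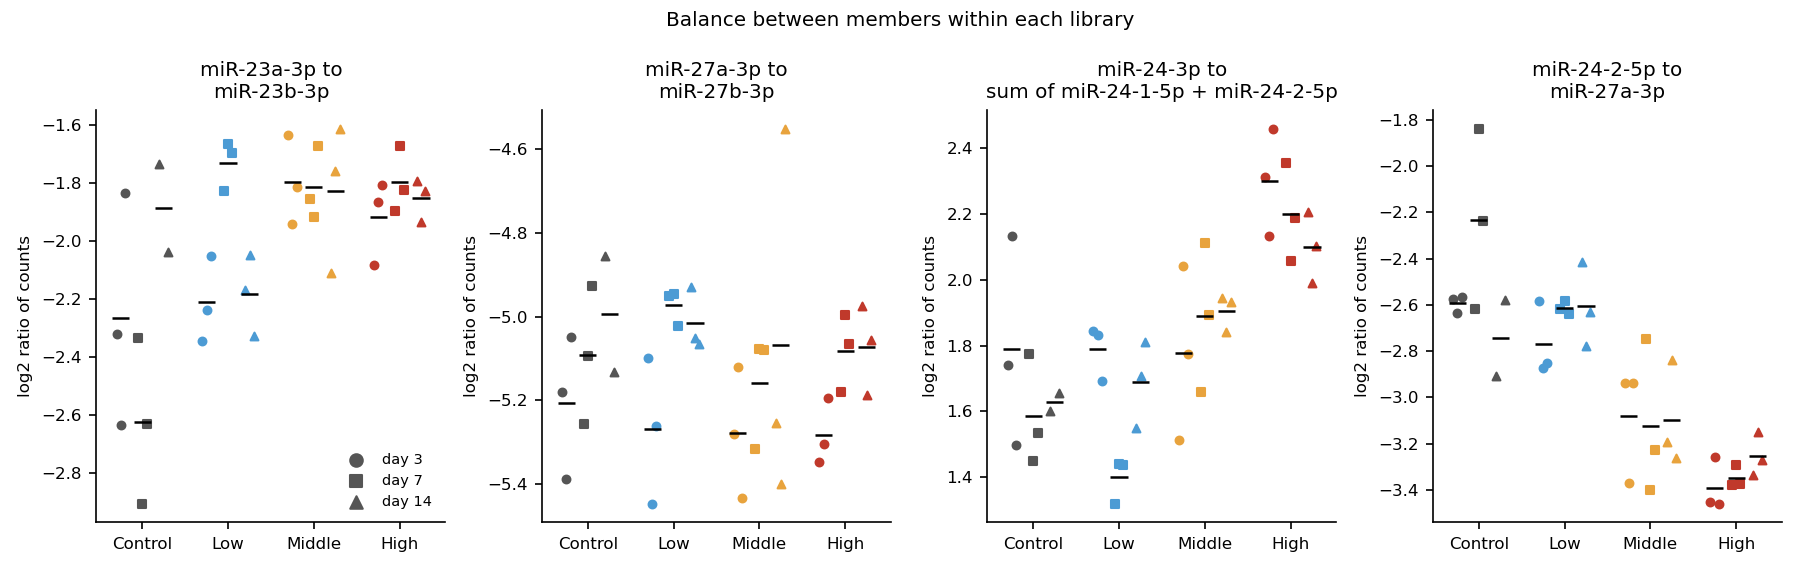
Log2 ratio of counts of pairs of members within each library, by dose from control to high, with a marker shape for each day and a bar at each group mean; the vertical axes do not start at 0. The ratio of miR-24-2-5p to miR-27a-3p is lowest at the high dose, where all 9 libraries lie below all 8 controls, and the ratio of miR-27a-3p to miR-27b-3p overlaps at every dose.

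Members of the same cluster did not change by the same amount. These ratios were chosen after the data were examined, and their p-values were adjusted over 18 tests. Within the miR-23a/27a/24-2 cluster, the ratio of miR-24-2-5p to miR-27a-3p had a lowest, median and highest log2 value of -3.46, -3.34 and -3.15 at the high dose, against -2.91, -2.58 and -1.84 in controls. The groups did not overlap, and the difference was -0.81 (exact permutation adjusted p = 0.00225); at the middle dose it was -0.58 (adjusted p = 0.0045). The ratio of miR-24-2-5p to miR-23a-3p differed by -0.86 at the high dose and -0.68 at the middle dose (exact permutation adjusted p = 0.00225 and 0.003). The ratio of miR-23a-3p to miR-27a-3p differed by 0.05 and 0.10 (exact permutation adjusted p = 0.203 and 0.256). From days 3 and 14 alone the high dose differences of miR-24-2-5p were -0.65 and -0.72, both still past the threshold, and the middle dose ones -0.42 and -0.48, no longer past it. The smallest exact permutation p from these days is 0.005, here adjusted over 18 tests. A ratio that did not pass from them is therefore not shown to be unchanged.

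Within the miR-23b/27b/24-1 cluster, the ratio of miR-23b-3p to miR-27b-3p differed by -0.40 at the high dose and -0.41 at the middle dose (exact permutation adjusted p = 0.00707 for both). From days 3 and 14 alone these were -0.20 and -0.27 and did not pass. The same limit of the test from these days holds for all ratios of this cluster. The ratio of miR-24-1-5p to miR-27b-3p differed by -0.66 at the high dose and -0.92 at the middle dose (exact permutation adjusted p = 0.0225 and 0.0063). The high dose call was lost without control day 14 replicate 1 (-0.60), high day 14 replicate 1 (-0.61) or high day 14 replicate 3 (-0.57), and both calls were lost from days 3 and 14 alone (-0.43 and -0.77). The ratio of miR-24-1-5p to miR-23b-3p differed by -0.26 and -0.51 (exact permutation adjusted p = 0.256 and 0.05), and the middle dose value passed without any 1 of 6 libraries, control day 3 replicate 3, control day 7 replicate 2, control day 14 replicate 2, middle day 3 replicate 3, middle day 7 replicate 3 or middle day 14 replicate 3, at -0.55 to -0.63. At the low dose none of the 6 within-cluster ratios passed (0 of 6, with 0 at an unadjusted exact permutation p under 0.05); 1 of them, miR-24-1-5p to miR-27b-3p (-0.38, adjusted p = 0.0963), passed without control day 3 replicate 3 (-0.47) or low day 14 replicate 2 (-0.48).

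Since reads of near-identical members could have been exchanged between them, their counts were also summed and tested in the same fit. The miR-23-3p sum had a log2 fold change of -0.68 ± 0.09 at the high dose, -0.56 ± 0.09 at the middle dose and -0.12 ± 0.09 at the low dose (edgeR adjusted p = 3.44e-08, 1.49e-06 and 0.326). The miR-27-3p sum had -0.34 ± 0.06, -0.22 ± 0.06 and -0.06 ± 0.06 (edgeR adjusted p = 2.95e-05, 0.0045 and 0.547). As sums, which do not depend on how reads were split within a pair, both families were lower at the high and middle dose on average over days. At the middle dose the miR-27-3p sum passed on day 3 (-0.33, edgeR adjusted p = 0.0152). It did not on day 7 (-0.12, adjusted p = 0.355) or day 14 (-0.20, adjusted p = 0.252). The miR-27-3p sum was mostly miR-27b-3p, at a mean of 32490 CPM against 931 CPM for miR-27a-3p, and says little about miR-27a-3p.

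The other arms of these hairpins were scarcer. miR-27a-5p rested on 3 to 31 reads per library, which limits its precision. miR-27a-5p, at a mean of 3.35 CPM, was lower at the high dose by 0.94 ± 0.26 on the log2 scale (edgeR adjusted p = 0.00211) and had -0.29 ± 0.24 at the middle dose (adjusted p = 0.301). By day, its high dose log2 fold change was -1.37 ± 0.42 on day 3, -1.41 ± 0.42 on day 7 and -0.03 ± 0.48 on day 14 (edgeR adjusted p = 0.00945, 0.00564 and 0.966); the day 14 effect minus the day 3 effect was 1.34 ± 0.65 (adjusted p = 0.67). miR-27b-5p, at 31.5 CPM, had -0.09 ± 0.11 at the high dose (adjusted p = 0.467). miR-23a-5p, with 12 reads in all, and miR-23b-5p, with 58, were not tested. Outside the clusters, a search of RefSeq miRNAs for member seeds within bases 1 to 9 found 2 others. miR-128-3p, a miRNA best known from brain, holds the 7 bases UCACAGU of the miR-27 seed, but from its base 1, so that its own seed is shifted by 1 base:
miR-128-3p: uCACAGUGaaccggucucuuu
It was higher than in controls by 3.93 ± 0.23 on the log2 scale at the high dose and also by 3.93 ± 0.23 at the middle dose (edgeR adjusted p = 1.70e-15 and 1.37e-15), while both miR-27 members were lower there. miR-222-5p holds the miR-24-3p seed from its base 1 and was not tested.

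Across the 12 group means of log2 CPM, the members differed in how alike they were. These values are descriptions over groups that share their scaling and the same split of libraries. Pearson's r was highest between miR-24-2-5p and miR-23b-3p (0.944), which belong to different clusters, and between miR-23b-3p and miR-24-3p (0.923). It was lowest between miR-23a-3p and miR-24-1-5p (0.478) and was 0.638 between the near-identical miR-23a-3p and miR-23b-3p, against 0.808 between miR-27a-3p and miR-27b-3p. Among 235 other miRNAs with a mean of at least 10 CPM, those most like each member were miR-872-5p (0.977) for miR-24-2-5p, miR-139-5p (0.980) for miR-23b-3p, and let-7b-5p for both in second place (0.965 and 0.973). miR-338-3p (0.929) was most like miR-23a-3p, miR-142-3p (0.897) most like miR-27a-3p, and miR-32-5p (0.959) most like miR-24-3p. For miR-27b-3p and miR-24-1-5p it was miR-466b-2-3p (0.909 and 0.923).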

How the data were processed

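The data are read counts for each mature miRNA, deposited by the authors without normalization. Their genome build was rn6 (submitters' processing notes), while the aligner, the counting tool and the miRNA annotation are not given in the sources. Count columns were matched to samples by name, and 2 libraries with 2 run columns each had their runs summed. The members and lists were chosen with earlier results of these data known, and the day 7 comparisons between doses and the within-cluster ratios were added after the data were examined. The named miRNAs are all 7 members, the other arms of their hairpins, miRNAs holding a member seed in bases 1 to 9, the 2 most alike to each member by Pearson's r over group means, and up to 4 markers of each cell type list.

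miRNAs were filtered with filterByExpr (minimum count 10, minimum total 15), which kept 328 of 763, scaled by TMM, and fitted with edgeR version 4.0.16 under R version 4.3.3, taking a mean for each of 12 groups over 35 libraries, leaving 23 residual degrees of freedom. The quasi-likelihood F-test was used, with robust dispersions and Benjamini-Hochberg adjustment over all 328 within a comparison. Standard errors (SE) were derived from F as |log2 fold change|/√F. Ratios used log2 of the count plus 0.5. The steps were tested on simulated counts. Replicates differed by more than counting noise, with a chi-square per degree of freedom of at least 34.8 over 34 pairs, so no library was counted as a duplicate. Alternatives were DESeq2 1.42.0, its size factors, library size alone, other filters, fewer libraries, the replicate number as a block and single libraries left out. Sequences came from RefSeq (GRCr8), and figures from matplotlib 3.10.9.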

Additional observations from a re-analysis of the deposited data

Results flagged for a closer look

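A pair of results was flagged because the low dose effect differed between days in a direct test. In that test 2 of 7 members passed, and 37.5% of all tested miRNAs did in either direction. The effect on miR-23a-3p on day 7 exceeded the mean of its effects on days 3 and 14 by 0.53 on the log2 scale, and that on miR-23b-3p was below it by the same measure, at -0.51. The miR-23b-3p difference did not pass with no filter on low counts (-0.47, edgeR adjusted p = 0.0946), with the replicate number as a block (-0.52, adjusted p = 0.0643) or without any 1 of 7 libraries. miR-23a-3p was higher than every day 7 control in 3 of 3 low dose libraries of day 7, as were 29.9% of all tested miRNAs. miR-23b-3p was lower than every day 7 control in 3 of 3, as were 20.4% of all. On days 3 and 14 the low dose log2 fold changes were -0.14 and -0.08 for miR-23a-3p, and -0.20 and 0.21 for miR-23b-3p. The low dose libraries of day 7 were also the ones that lay with the middle and high dose on the first principal component, and the part of that shift in these results was not tested.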

How the results depend on the processing

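Over all members and comparisons, 2372 values were recomputed: 2238 kept their direction and side of the threshold, 63 passed it only in the alternative and 71 only in the reported fit. No called value changed sign, and the sign of values that passed in neither was not compared. The cause of each change below was not tested. Counts of calls below are totals of each setting, not shared miRNAs. Between controls of days 7 and 3 there were 5 calls, against 3 with the stricter filter or DESeq2's size factors, 22 in DESeq2, 1 with the compared days only or no filter and 8 with the replicate block (1 to 62 without 1 library). Days 3 and 14 alone gave 30 calls, against 57, between the high and middle dose and 0, against 74, for the low dose average. The miR-23a-3p to miR-23b-3p ratios from these days were 0.19 (high) and 0.26 (middle), not past the threshold. The ratio of miR-24-3p to its 5p arms was 0.49 (high), also not past it. With these days the smallest exact permutation p, 0.005, is 0.06 times 12 tests, so a ratio that reached it alone could not pass. Members lower at the middle dose of day 14 were 2, against 5 with DESeq2's size factors or DESeq2, 7 by library size, 1 with no filter and 4 with the stricter filter. Members lower for the low dose average were 0, against 1 in each of these 5 settings. On day 7, between the high and the low dose, no filter gave 45 calls and 2 members lower, against 79 and 4. For the middle against the low dose, there were 20 calls with no filter and 19 with the compared days only, against 33, and 1 member lower in both, against 2.

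Without single libraries, calls ranged from 0 to 1 between controls of days 14 and 3, 0 to 19 for the high dose effect of day 7 minus day 3 (19 without control day 7 replicate 1), 53 to 114 for the low dose average and 0 to 2 on day 3 of it. They ranged from 49 to 67 and from 13 to 41 for the high and the middle against the low dose on day 7, with 2 to 5 and 0 to 2 members. Members lower for the low dose average ranged from 0 to 3, and the miR-23 ratio from 0.34 to 0.47 (high) and 0.38 to 0.52 (middle).

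Replicate numbers did not pair the samples: same-numbered libraries had a median correlation of deviations of -0.00951 over 51 pairs (-0.302 to 0.213), and 9 of 35 libraries correlated best with their own number. With the number as a block, 205 against 206 miRNAs were called for the high dose average and 200 against 203 for the middle; among members the block ended the calls of miR-23b-3p on day 14 of the high dose (-0.45) and in the low dose contrast between days (-0.52).

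Scaling moved the share of calls that were higher: by library size, 51.7% to 41.3% (middle average), 62.1% to 41.3% (high day 14), 64.5% to 37.9% (middle day 14) and 45.6% to 68.1% (high against middle); by DESeq2's size factors, 73.0% to 59.3% (low average), 61.8% to 51.5% (low dose, day 7 against other days) and 29.1% to 54.0% (high against low dose, day 7). Among the members, depth limits miR-24-1-5p most, at 4 to 42 reads a library, and miR-27a-5p outside them had 3 to 31.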
